A study of Homo sapiens with 6 samples.

Results

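The gene set described here comprised 9 genes of the epithelial tight junction, 5 claudins (CLDN1, CLDN3, CLDN4, CLDN7 and CLDN12), occludin (OCLN), the adhesion molecule F11R and the scaffold genes TJP1 and TJP3. They were taken from the deposited expression table by gene symbol, and all 9 were found among its 17047 genes. Expression was measured in HCT116, an established human colorectal carcinoma cell line, to ask how its transcriptome responds to silencing of PLEK2, which encodes the membrane- and cytoskeleton-associated protein pleckstrin 2. Polyadenylated RNA was sequenced as single-end short reads from 3 libraries of cells carrying a non-targeting shRNA (shNC) and 3 libraries of cells carrying PLEK2 shRNA. Both groups carried an shRNA construct delivered by virus, and the study lists a single PLEK2 shRNA, so an effect of PLEK2 and one of that hairpin cannot be told apart. Nothing in the labels says that the libraries of a group came from separate cultures, so the p-values measure only the spread between these libraries, which may be technical.

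Tight junctions seal the space between neighbouring epithelial cells and separate the apical from the basolateral membrane. Claudins are tetraspan membrane proteins that form the paired strands of the seal and set which ions pass, occludin is a further membrane protein of the strands, and JAM-A, the product of F11R, is an immunoglobulin-type adhesion molecule at the same site. The ZO proteins, among them ZO-1 (TJP1) and ZO-3 (TJP3), bind the tails of these membrane proteins from the cytoplasm and link them to actin. In the intestine, claudin-3, claudin-4 and claudin-7 are generally counted as sealing claudins.

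The libraries held between 14377532 and 15602732 counts, and the 9 genes together took between 0.0644% and 0.0738% of them. Levels in CPM, counts scaled to the library total, were further scaled by TMM, and a count of 3 corresponded to between 0.191 and 0.212 CPM. PLEK2, the targeted gene, was at 86.0, 72.6 and 82.9 CPM in shNC libraries 1 to 3 and at 16.02, 32.2 and 34.9 CPM in PLEK2 shRNA libraries 1 to 3, without overlap between the groups. Deviations from the group mean were shared by libraries of one replicate number (r = 0.736, 0.561 and 0.562 over 10231 genes), and replicate 1 stood apart from replicates 2 and 3 in both groups, so each member's difference is given without and with the replicate number as a block, and genes of other lists with it. The epithelial identity of the line was present in EPCAM (250 ± 4.51 CPM in shNC, SD, n = 3), KRT8 and CDH1. The intestinal genes differed: CDX2 had a mean of 26.1 CPM and KRT20 one of 1.89 CPM in shNC, whereas VIL1 and CDH17 had at most 3 counts in any library. Of the markers of other cell types, COL1A1 (29.9 CPM in shNC) and CD68 (47.8 CPM) were the only ones above 1 CPM in either group's mean.

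The upstream sequences of 4 claudins are shown because CLDN7 and CLDN4 were the most abundant members and CLDN3 is the chromosomal neighbour of CLDN4. CLDN12 was added because it differed in direction from CLDN7 and CLDN4. Each sequence is the stretch of 250 bases before an annotated start, 5′ to 3′ on the gene's strand, from RefSeq on GRCh38.p14. Capitals mark the E-box CAGGTG on either strand, a core motif to which the repressors SNAI1 and ZEB1 are known to bind.
CLDN7 (chr17:7262479-7262728, minus strand): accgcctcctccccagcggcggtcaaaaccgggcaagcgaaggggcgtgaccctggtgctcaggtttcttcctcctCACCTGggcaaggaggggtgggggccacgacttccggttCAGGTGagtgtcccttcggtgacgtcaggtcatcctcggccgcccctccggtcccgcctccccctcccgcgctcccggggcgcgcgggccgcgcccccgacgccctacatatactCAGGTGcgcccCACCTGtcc
CLDN4 (chr7:73830746-73830995, plus strand): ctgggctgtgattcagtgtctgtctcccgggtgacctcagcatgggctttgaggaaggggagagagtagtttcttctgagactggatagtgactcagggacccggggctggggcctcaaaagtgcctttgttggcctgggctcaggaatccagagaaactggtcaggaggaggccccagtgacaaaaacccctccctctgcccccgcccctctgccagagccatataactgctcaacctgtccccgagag
CLDN3 (chr7:73770271-73770520, minus strand): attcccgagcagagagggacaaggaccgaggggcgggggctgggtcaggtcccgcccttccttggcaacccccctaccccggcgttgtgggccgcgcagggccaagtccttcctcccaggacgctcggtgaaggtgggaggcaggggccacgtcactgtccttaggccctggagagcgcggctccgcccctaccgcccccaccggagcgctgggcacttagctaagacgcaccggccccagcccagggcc
CLDN12 (chr7:90403211-90403460, plus strand): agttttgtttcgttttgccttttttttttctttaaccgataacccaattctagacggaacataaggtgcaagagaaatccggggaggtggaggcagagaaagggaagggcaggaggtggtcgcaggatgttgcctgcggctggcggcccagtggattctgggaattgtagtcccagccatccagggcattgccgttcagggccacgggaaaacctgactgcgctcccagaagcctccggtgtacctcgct

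The CLDN7 window shown held 4 E-boxes, beginning 174, 135, 20 and 9 bases before the start, and the windows of CLDN4, CLDN3 and CLDN12 held 0. A second RefSeq window of CLDN7, before another start (chr17:7263214-7263463), held 0 and had a GC content of 60.4%. RefSeq windows were found for 8 of the 9 genes, 14 windows in all, and 5 of the 14 windows, from 4 genes (CLDN7, OCLN, TJP1 and TJP3), held at least 1 E-box. Of 14954 windows of the same length before the starts of genes that passed the filter on low counts, 16.4% held 1. The motif AACCNGTT, the core bound by grainyhead-like factors, occurred on either strand in 0 of the 14 windows and in 1.26% of all windows, so no match overlapped an E-box. The GC content was 71.6% for CLDN3, 71.2% for the CLDN7 window shown, 58.8% for CLDN4 and 54.4% for CLDN12, beside a median of 64.8% over all windows. These matches describe letters only.

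The hairpin was compared by sequence with the 9 genes. Its target, shown because it defines the treatment, is gctggtgtactacaagcttga, and the guide strand made from it is tCAAGCTTgtagtacaccagc, with the seed (bases 2 to 8) in capitals. The seed's site AAGCTTG occurred once in the coding sequence of PLEK2. In the coding sequences and 3′ UTRs of the 9 genes it occurred 0 times (GENCODE 44, canonical transcripts). Of 12443 genes that passed the filter on low counts, PLEK2 left out, 10.5% held one in the 3′ UTR. Their coding sequences were not searched. At so low a share, 0 of 9 genes does not set them apart. The longest run of bases shared with the target was 21 in PLEK2 and between 6 and 9 in the 9 genes, longest in CLDN12. Such runs were not measured in other genes, and an effect of the hairpin on the 9 genes was not tested.

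Levels per transcript length (FPKM) differed widely between the genes. CLDN7 had the highest mean over the 6 libraries (82.4 FPKM, range 72.2 to 95.2), followed by CLDN4 (60.5, range 49.8 to 69.6). F11R (32.2) and TJP1 (27.7) came next, with F11R above TJP1 in 4 of 6 libraries, so the order of these neighbours was not fixed. CLDN12 (8.83 FPKM), OCLN (8.11) and TJP3 (7.75) lay close together: CLDN12 was above OCLN in 5 of 6 libraries and OCLN above TJP3 in 3 of 6. CLDN3 was lower still (4.49 FPKM), and CLDN1 was at 0.01. The remaining neighbours in this order kept their order in all 6 libraries without overlap.

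**Figure D1:**
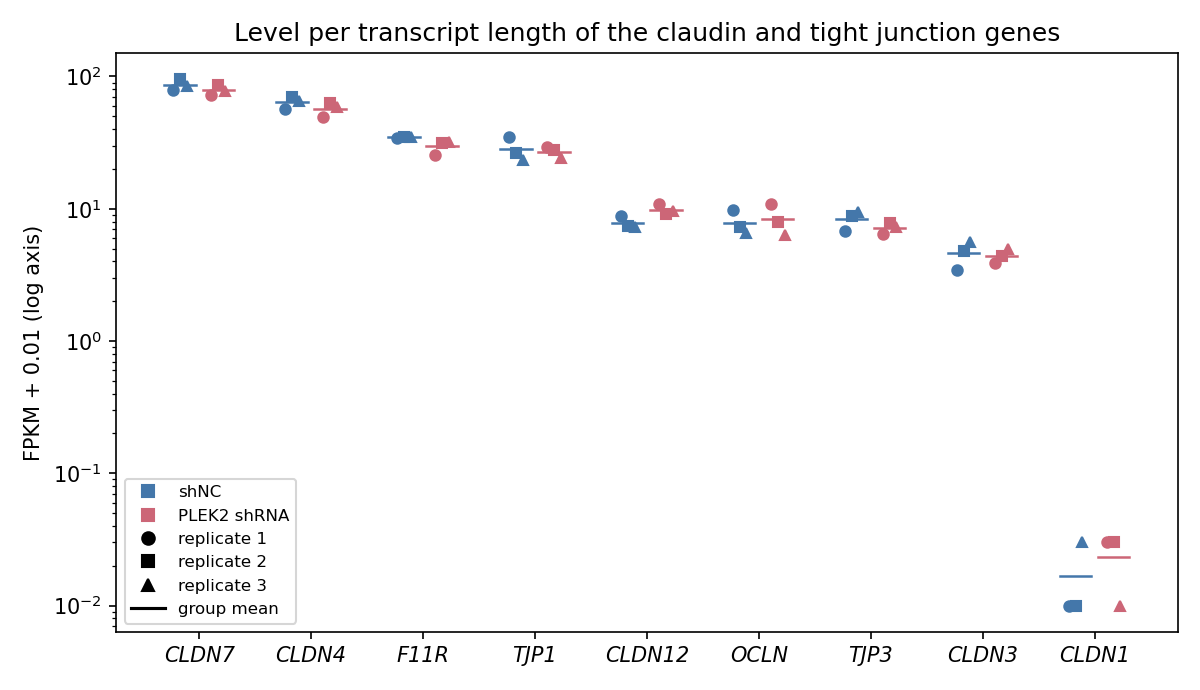
FPKM of the 9 genes in each library, on a log axis after adding 0.01 so that zeros can be drawn. Blue points are shNC, red points PLEK2 shRNA, shapes give the replicate number and bars the group means. CLDN7 and CLDN4 are the most abundant, and CLDN1 is near 0 in every library.

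CLDN3 and CLDN4 are neighbours on chromosome 7 (GRCh38, CLDN3 at chr7:73768997-73770270 on the minus strand and CLDN4 at chr7:73799542-73832690 on the plus strand). Their outermost annotated ends are 29271 bases apart with 0 annotated genes between them. Their levels were far from equal, since CLDN4 was at 13.5 times the mean FPKM of CLDN3, and at 11.8 to 16.4 times in single libraries. CLDN7 lies at chr17:7259903-7263983 (minus strand), CLDN12 at chr7:90383721-90513402 (plus strand) and CLDN1 at chr3:190305707-190322446 (minus strand). The upstream windows shown for CLDN4, CLDN7 and CLDN12 lie inside these intervals, before starts other than the outermost one. CLDN12 shares 347 exonic bases with GTPBP10 and 201 with CDK14 on the same strand, so its count may depend in part on how reads in those bases were assigned. It also shares 531 with PTTG1IP2 and 371 with an annotated lncRNA on that strand, neither of them listed in the table used here. The counts of CLDN12 were whole numbers in all 6 libraries, and how reads were assigned was not tested. CLDN7 shares 269 exonic bases on the same strand with an annotated gene that is not listed in the table used here.

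8 of the 9 genes passed the filter on low counts, as did 12959 genes in all. With edgeR's quasi-likelihood test and Benjamini-Hochberg adjustment over these 12959 genes, 0 of the 8 differed between PLEK2 shRNA and shNC at an adjusted p under 0.05, as did 0% of all genes. With the block, the count was again 0 of 8, beside 0.849% of all genes (110). PLEK2 itself had a log2 fold change of -1.54 and an edgeR adjusted p of 0.684 without the block, and 0.00106 with it. The fit without the block thus did not call even the targeted gene. By the study's criterion (1.5-fold or more, unadjusted p under 0.05), applied to the edgeR fit without the block, 0 of 8 were called and 0.463% of all genes. Only the cutoffs are the study's, and its own gene list came from another analysis. DESeq2's Wald test called 0 of the 8 and 0.0705% of all genes. With the block it gave an adjusted p for only 4 of them (CLDN4, CLDN7, TJP1 and F11R) and called 0 of these, beside 2.56% of the 2501 genes with an adjusted p. Limma-trend on log2(FPKM + 1) called 0 of the 8 without and with the block, beside 0% and 0.154% of all genes. The 95% intervals of all 8 log2 fold changes lay within ±0.58, a 1.5-fold change, in both edgeR fits, so larger differences in either direction fell outside them.

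At an unadjusted p under 0.05, 2 of 8 genes passed without the block (CLDN12, higher with PLEK2 shRNA, and F11R, lower), beside 3.09% of all genes (400). With the block 5 of 8 did, which is 62.5% beside 18.3% of all genes: CLDN12 was higher, and CLDN4, CLDN7, TJP3 and F11R were lower. In all 3 same-numbered pairs, CLDN4, CLDN7, TJP3 and F11R were lower with PLEK2 shRNA, 4 of 8 beside 21.1% of all genes. CLDN12 was higher in all 3 pairs, 1 of 8 beside 19.9%. The groups did not overlap for CLDN12 and F11R, 2 of 8 beside 9.21% of all genes. The median log2 fold change of the 8 genes was -0.13 in both fits, whereas that of all 12959 genes was -0.0021 without and -0.0018 with the block. These counts describe genes chosen with earlier results known and are not tests of the set.

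CLDN4 and CLDN7, the most abundant claudins here, were lower with PLEK2 shRNA by small amounts. CLDN7 was at 141, 166 and 145 CPM in shNC libraries 1 to 3 and at 119, 151 and 135 CPM in PLEK2 shRNA libraries 1 to 3, means 151 ± 13.3 and 135 ± 15.8 (SD, n = 3). The groups overlapped, yet within each pair the PLEK2 shRNA library was the lower one. The log2 fold change was -0.16 (SE 0.11) without and -0.16 (SE 0.05) with the block, and edgeR's adjusted p was 0.968 and 0.149.

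CLDN4 was at 97.4, 119 and 112 CPM in shNC and 82.2, 106 and 98.5 CPM in PLEK2 shRNA. Replicate 1 was the lowest library of each group, and the difference within pairs was similar in the 3 pairs, with log2 ratios of -0.24, -0.17 and -0.18. The edgeR log2 fold change was -0.20 (SE 0.12, adjusted p = 0.968) without and -0.20 (SE 0.05, adjusted p = 0.0961) with the block. The spread between replicate numbers was thus larger than the difference between the groups.

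CLDN12 differed in direction from CLDN4 and CLDN7. It is an unusual claudin whose tail lacks the ZO-binding end of most family members, and it was at 31.0, 26.3 and 25.2 CPM in shNC and 37.3, 31.5 and 33.0 CPM in PLEK2 shRNA. All 3 PLEK2 shRNA libraries lay above all 3 shNC libraries, narrowly so for shNC library 1. The mean was 1.23-fold higher, with pair log2 ratios of 0.27, 0.26 and 0.39 and a log2 fold change of 0.30 (SE 0.12, 95% interval 0.03 to 0.57). edgeR's adjusted p was 0.968 without and 0.0695 with the block. The exact two-sided permutation test of the mean CPM gave p = 0.1, the smallest that 3 against 3 libraries allow. In edgeR with the block, CLDN12 passed an adjusted p of 0.05 with library totals in place of TMM (0.0457), where 1.48% of all genes did, and without replicate 1 (0.0257), where 4.06% did. It did not without replicate 2 (0.301), where 0.138% of all genes passed, or without replicate 3 (0.148), where 2.29% did.

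CLDN3 was a low-abundance claudin in these cells, with between 61 and 92 counts a library. Its levels were 3.98, 5.51 and 6.37 CPM in shNC and 4.26, 4.93 and 5.49 CPM in PLEK2 shRNA. The groups overlapped, and pair 1 differed in direction from pairs 2 and 3 (log2 ratios 0.10, -0.16 and -0.21). The log2 fold change was -0.11 (SE 0.21, 95% interval -0.58 to 0.36) without and -0.10 (SE 0.15) with the block. CLDN1 had 0, 0 and 1 counts in shNC and 1, 1 and 0 in PLEK2 shRNA, at or under the floor of 3 counts in every library, so no fold is given.

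Of 19 further claudins listed, 12 were in the table and 5 passed the filter. None of the 5 had an unadjusted p under 0.05 in either edgeR fit. CLDN15, a cation-selective pore claudin of the intestine, was the most abundant at 17.3 ± 3.38 CPM in shNC and 15.4 ± 2.07 in PLEK2 shRNA (SD, n = 3; log2 fold change with the block -0.17, SE 0.10). CLDN2, another pore-forming claudin, was at 1.27 and 1.48 CPM (0.21 on the log2 scale with the block). CLDN23 was at 2.89 and 2.85 CPM (-0.00), CLDN5 at 0.791 and 0.852 (0.16) and CLDN9 at 0.682 and 0.546 (-0.33). CLDN6 reached at most 10 counts and was not tested. The claudin transcripts of these cells were therefore chiefly CLDN7 and CLDN4 by FPKM.

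**Figure D2:**
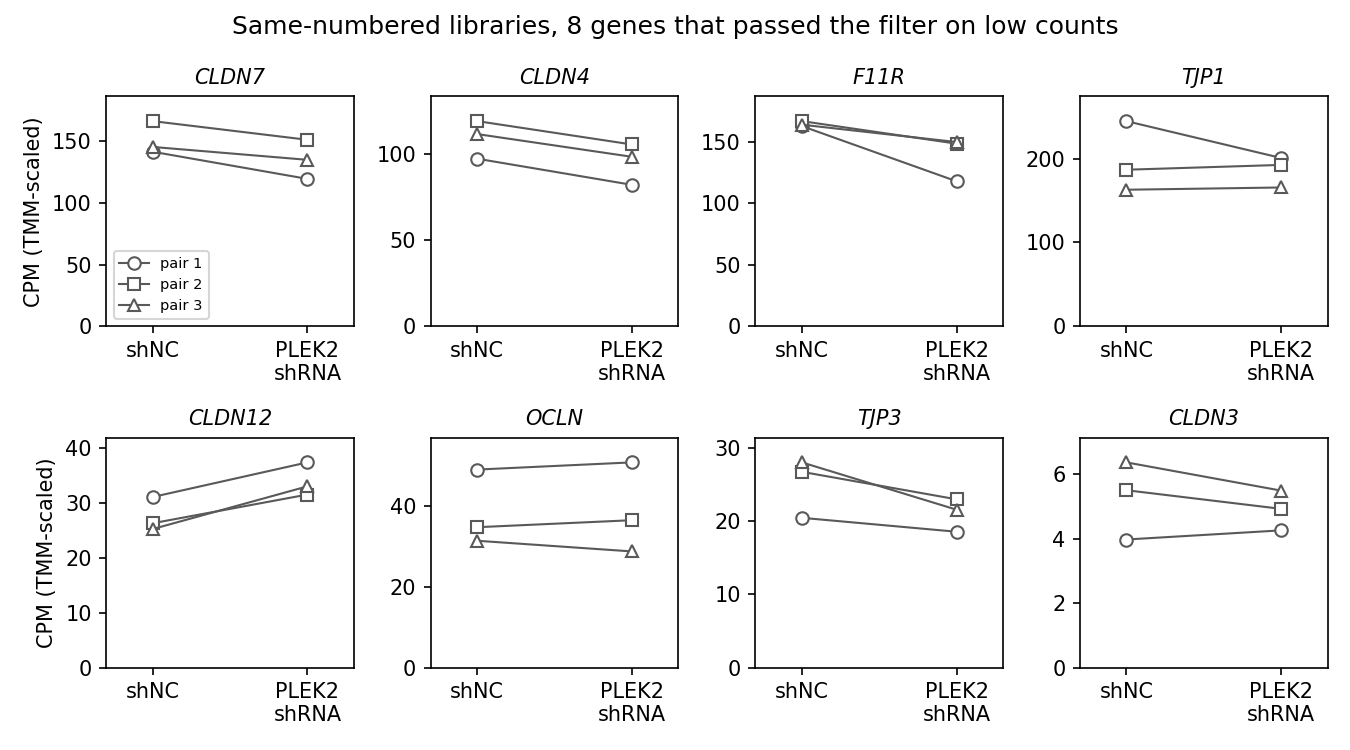
TMM-scaled CPM of the 8 genes tested, each line joining the shNC and the PLEK2 shRNA library of one replicate number, with axes starting at 0. The 3 lines slope down for CLDN7, CLDN4, F11R and TJP3 and up for CLDN12, and differ in slope for TJP1, OCLN and CLDN3.

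OCLN did not differ between the groups beyond its spread. Occludin (chr5:69492292-69558104, plus strand) was at 49.1, 34.8 and 31.4 CPM in shNC and 50.9, 36.5 and 28.8 CPM in PLEK2 shRNA. The spread followed the replicate number, since both replicate 1 libraries were the highest of their groups. The log2 fold change was 0.01 (95% interval -0.50 to 0.52) without and 0.00 (-0.15 to 0.15) with the block. Its count was not a whole number in 1 library, as when a read is divided between genes.

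F11R (chr1:160995211-161021343, minus strand) had the lowest log2 fold change with the block of the 8 genes. It was at 163, 167 and 164 CPM in shNC and at 118, 148 and 150 CPM in PLEK2 shRNA, means 164 ± 2.08 and 139 ± 18.02 (SD, n = 3). All 3 PLEK2 shRNA libraries lay below all 3 shNC libraries, and library 1 was the lowest by a wide margin. The mean was 0.84-fold that of shNC, and the pair log2 ratios were -0.47, -0.17 and -0.13. PLEK2 itself was also lowest in PLEK2 shRNA library 1, with a pair log2 ratio of -2.42 beside -1.17 and -1.25 in pairs 2 and 3, and its part in the F11R value was not tested.

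The edgeR log2 fold change of F11R was -0.25 (SE 0.10, 95% interval -0.48 to -0.01, adjusted p = 0.968) without and -0.25 (SE 0.07, adjusted p = 0.0876) with the block, and the exact permutation p was 0.1. Without PLEK2 shRNA library 1 the log2 fold change was -0.14. With the block and without replicate 3 it was -0.31, at an adjusted p of 0.0137 in edgeR, where 2.29% of all genes passed, while over the fits with the block its adjusted p ranged up to 0.303. F11R counts carried decimals in 2 libraries. A readthrough gene in the annotation shares 1853 exonic bases with it on the same strand and is not listed in the table used here, and how reads were assigned between them was not tested.

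Neither scaffold gene passed the adjusted test. TJP1 (chr15:29699367-29968915, minus strand), which encodes ZO-1, was at 245, 187 and 163 CPM in shNC and 201, 192 and 166 CPM in PLEK2 shRNA. The shNC library 1 was the highest of the 6, and pairs 2 and 3 differed by little (log2 ratios -0.29, 0.04 and 0.02). The log2 fold change was -0.09 (95% interval -0.42 to 0.24) without and -0.07 (-0.22 to 0.07) with the block. Without shNC library 1 it was 0.10 in the fit without the block, so its sign rests on that library.

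TJP3 (chr19:3708362-3750813, plus strand), which encodes ZO-3, was at 20.5, 26.8 and 28.0 CPM in shNC and 18.6, 23.0 and 21.6 CPM in PLEK2 shRNA. The groups overlapped because shNC library 1 was low, and within pairs each PLEK2 shRNA library was the lower one (log2 ratios -0.14, -0.22 and -0.38). edgeR gave a log2 fold change of -0.25 (SE 0.15, adjusted p = 0.968) without and -0.25 (SE 0.08, adjusted p = 0.149) with the block.

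**Figure D3:**
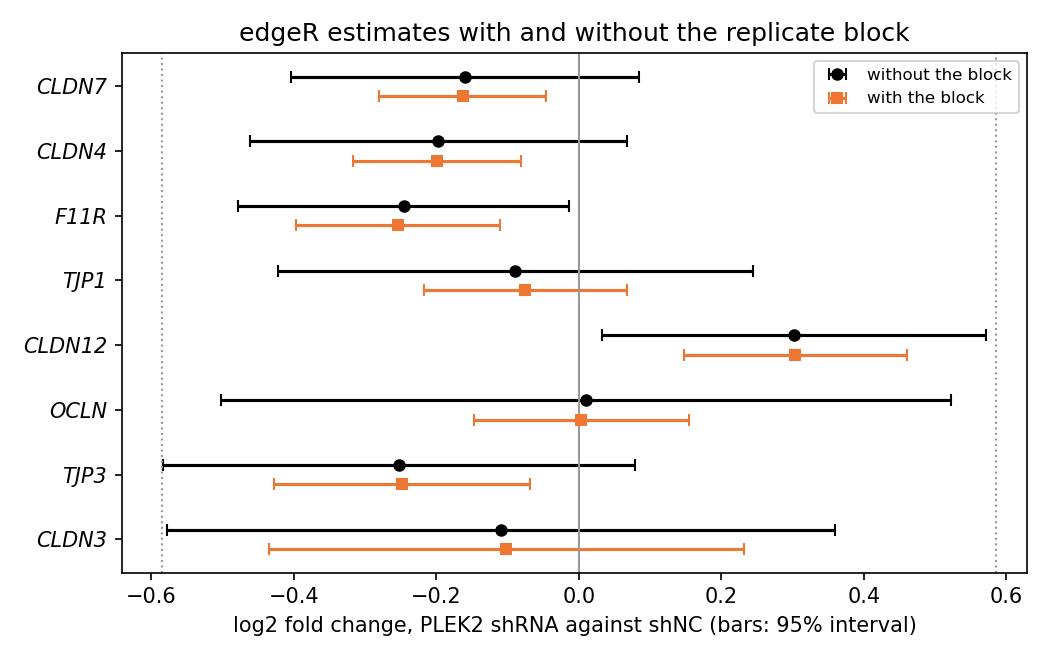
Log2 fold change of PLEK2 shRNA against shNC for the 8 genes tested, with 95% intervals, from edgeR without the block (circles) and with it (squares). Dotted lines mark a 1.5-fold change. All intervals lie between them, and the intervals of CLDN12 and F11R exclude 0 in both fits.

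Over both groups, several genes separated by replicate number. The mean of both replicate 1 libraries was 50.0 CPM for OCLN, 223 for TJP1, 89.8 for CLDN4, 19.5 for TJP3 and 4.12 for CLDN3. In the other 4 libraries the mean was 32.9, 177, 109, 24.8 and 5.57 CPM. Thus OCLN and TJP1 were higher, and CLDN4, TJP3 and CLDN3 lower, in replicate 1 of both groups. Replicate 1 was also the lowest library of each group for CLDN7 and F11R and the highest for CLDN12, with values that overlapped those of the other 4.

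Among 12 tested genes of 14 other membrane proteins of the tight junction, 1 was higher and 2 were lower at an unadjusted p under 0.05 with the block (25% beside 18.3% of all genes), and 0 passed the adjusted p in either fit. LSR, angulin-1 of the tricellular junction, was lower (273 and 248 CPM in shNC and PLEK2 shRNA, log2 fold change with the block -0.15). MARVELD2, tricellulin, was higher (25.4 and 28.6 CPM, 0.17). edgeR's adjusted p with the block was 0.166 for LSR and 0.259 for MARVELD2, and EPCAM was equal between the groups to 2 decimals (0.00 on the log2 scale).

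Among 26 tested genes of 29 other scaffold and cytoplasmic proteins, 4 were lower at an unadjusted p under 0.05 with the block, 0 were higher (15.4% beside 18.3% of all genes), and 0 passed the adjusted p. SYMPK, symplekin, was at 282 and 250 CPM (log2 fold change with the block -0.17, SE 0.05). ARHGEF18, a RhoA exchange factor, was at 58.5 and 51.4 CPM (-0.19), and AMOTL2, an angiomotin-like protein, at 25.3 and 21.5 CPM (-0.24). The fourth, TJAP1, was at 68.6 and 62.3 CPM (-0.14) and was named after its value was seen. The median of these 26 log2 fold changes was 0.02, beside -0.13 for the 8 members of the set.

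Of 18 transcription factors linked to epithelial junction genes, 15 were tested and 0 had an unadjusted p under 0.05 in either edgeR fit. ELF3, an epithelial ETS factor, was at 110 and 100 CPM (-0.13 with the block), GRHL1 at 13.0 and 14.7 (0.18) and GRHL3 at 13.0 and 11.1 (-0.19). The E-box repressors SNAI1 (33.4 and 32.0 CPM) and ZEB1 (1.58 and 1.95 CPM) had log2 fold changes of -0.06 (SE 0.07) and 0.29 (SE 0.25).

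Values of several epithelial markers were lower with PLEK2 shRNA, as those of CLDN4 and CLDN7 were. Of 10 listed, 8 were tested, and with the block 4 were lower (KRT18, KRT19, CDH1 and KRT8) and 1 was higher (ESRP1) at an unadjusted p under 0.05 (62.5% beside 18.3% of all genes), with 0 past the adjusted p. CDH1, E-cadherin of the adherens junction, was at 113 ± 10.97 and 90.4 ± 17.2 CPM (SD, n = 3; log2 fold change with the block -0.33, SE 0.09). The groups overlapped for CDH1, and its pair log2 ratios were -0.69, -0.21 and -0.09. KRT18 was at 2667 and 2269 CPM (-0.24) and KRT19 at 1223 and 1065 CPM (-0.20). Pair 1 also differed most for KRT18 (-0.41, -0.11 and -0.22) and KRT8 (-0.32, -0.14 and -0.18), but not for KRT19 (-0.20, -0.18 and -0.22). The remaining tested markers, EPCAM, CDX2 and KRT20, had log2 fold changes with the block of 0.00, -0.04 and -0.42 (SE 0.26 for KRT20). Summed over the 10 markers, the level was mostly that of KRT8, KRT18 and KRT19. This sum ranged from 7856 to 8952 CPM in shNC and from 6335 to 8199 CPM in PLEK2 shRNA. Its part in the claudin values was not tested. For markers of other cells, the summed CPM in shNC and PLEK2 shRNA ranged from 27.5 to 33.9 and 25.0 to 28.5 for 5 fibroblast genes, from 37.9 to 55.0 and 38.8 to 50.9 for 5 leukocyte genes, and from 0.494 to 1.52 and 0.826 to 1.38 for 4 endothelial genes. PECAM1, CDH5, CD3E, COL1A2 and PDGFRA had at most 3 counts in any library.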

How the data were processed

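For 6 HCT116 libraries, the authors deposited estimated counts, some with decimals, and length-scaled values read as FPKM. The header gives no unit for the latter. The submitters' processing notes name HISAT2 2.0.4, Bowtie2 2.2.5, RSEM 1.2.12, DESeq2 1.4.5 and GRCm38.p6, a mouse build, although the gene IDs are human. The build and strand setting behind the counts are thus unclear. The authors' group means and any comparison columns were not used.

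Counts were rounded, filtered (filterByExpr) and compared with edgeR 4.0.16 in R 4.3.3 (TMM, quasi-likelihood test, Benjamini-Hochberg adjustment), without and with the replicate number as a block. The standard error was the size of the log2 fold change divided by the square root of F. Same-numbered libraries were treated as pairs. Their deviations from the group means correlated at 0.561 to 0.736, and those of libraries with different numbers at -0.628 to 0.362. Replicates 2 and 3 correlated across numbers at 0.361 and 0.362. The labels state no shared day or batch. Alternatives used DESeq2 1.42.0, limma 3.58.1 on log2(FPKM + 1) or log2(FPKM + 0.1), other scalings and filters, and omission of libraries. The scripts were tested on simulated data. Figures used Python 3.11.15.

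The 9 genes and the other lists were chosen with earlier results of these data known. All 9 were named. From each other list, the 3 tested genes with the smallest p with the block were named where fewer than 3 passed the adjusted p, and every tested claudin. Some genes that this rule names are not reported here. Markers are given as counts and ranges. Positions are from GENCODE 44 on GRCh38.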

Additional observations from a re-analysis of the deposited data

How the results depend on the processing

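The count of the 8 tested genes at an adjusted p under 0.05 was 0 in the edgeR test without a block and under DESeq2 size factors, library totals, other filters, DESeq2's Wald test, limma and omission of single libraries. With the replicate block it was 0 (110 of all genes), and 1 with library totals (CLDN12, 192 of all genes). With the block and 1 replicate number left out of both groups it ranged from 0 to 1 (CLDN12 without replicate 1, F11R without replicate 3), with 528, 18 and 297 of all genes called without replicates 1, 2 and 3. The block changed no other call among these genes, and the count at the study's criterion was 0 throughout. The median log2 fold change of -0.13 moved to -0.092 with limma on log2(FPKM + 1), with and without the block, to -0.096 on log2(FPKM + 0.1) and to -0.10 with the block and library totals. It ranged from -0.22 to -0.099 as libraries were left out in turn.

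Among values of single genes, 145 kept their direction and side of the threshold, 3 newly passed it and 8 changed sign, the last in OCLN, TJP1 and CLDN3 on leaving out libraries. Without single libraries, TJP1 ranged from -0.20 to 0.10 (0.10 without shNC replicate 1), OCLN from -0.24 to 0.24 and CLDN3 from -0.27 to 0.058 (0.058 without shNC replicate 3). OCLN was -0.046, -0.10 and -0.24 without shNC replicate 2, shNC replicate 3 and PLEK2 shRNA replicate 1. With the block, OCLN was -0.018 without replicate 1 and -0.018 without replicate 2, and TJP1 0.039 without replicate 1. CLDN12 stayed above 0 and CLDN4, CLDN7, TJP3 and F11R below 0 under every alternative that gave an adjusted p. In these, the values without single libraries ranged from 0.23 to 0.41, -0.28 to -0.10, -0.25 to -0.077, -0.37 to -0.16 and -0.30 to -0.14. CLDN1 had too few counts for the filter, and DESeq2 with the block gave no adjusted p for CLDN3, CLDN12, OCLN and TJP3. The causes were not tested.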
